A study of Rattus norvegicus with 24 samples.

Results

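Sema3c, a secreted class 3 semaphorin, was examined in the rat dentate gyrus together with a related ligand, Sema3a, and the receptor genes Nrp1, Nrp2, Plxna2 and Plxnd1. The members were all probe sets whose platform annotation gives exactly 1 of these 6 gene symbols, which gives 10 of the 31042 probe sets other than controls and 6 of 14217 genes with a symbol. The set was chosen by the aged and young values of Sema3c in these same arrays, so those values are given as a description. The dentate gyrus was microdissected from the hippocampus of male Long-Evans rats that had received no treatment, 2 weeks after their behaviour was tested, and its total RNA was hybridized to Affymetrix rat expression arrays. The 3 groups were aged impaired rats (7 arrays, 24 to 26 months old), aged unimpaired rats (6 arrays, 24 to 26 months old) and young rats (8 arrays, 6 months old). Learning was scored while rats searched for a hidden platform in a pool, the Morris water maze. Aged rats that scored worse than the young range were called impaired and the others unimpaired. Each array is labelled as a biological replicate, and all animals were of 1 strain and 1 sex.

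Class 3 semaphorins are secreted proteins that attract or repel growing axons and migrating cells. They bind neuropilins, which hold the ligand, and neuropilins pair with plexins, which carry the signal into the cell and act on small GTPases and the actin cytoskeleton. Sema3C is a ligand of both neuropilins and signals with class A plexins or plexin D1, whereas Sema3A binds neuropilin 1. Neuropilins are also receptors of vascular endothelial growth factors, so their transcripts are found in neurons and in blood vessels. In the mouse dentate gyrus, neuropilin 2 and class A plexins limit the number of spines on granule cell dendrites, and plexin A2 and plexin A4 help to place mossy fibre terminals.

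The median log2 level of an array was 3.77 to 3.84, and arrays correlated with each other at an r of 0.9953 to 0.9983 over all probe sets. A probe set was tested where its log2 level was above 4 on at least 6 arrays, which left 15177. Of the granule neuron markers on the array, Prox1 (10.5 to 11.05), Calb1 (10.9 to 11.6), C1ql3 (12.0 to 12.9) and Dsp (6.31 to 8.59) passed this filter and Tdo2 (2.37 to 2.42) did not. None of the 3 mossy cell markers passed, and 5 of 7 markers of CA1 or CA3 pyramidal neurons did. Whether that RNA came from these neighbouring fields or from cells of the dentate gyrus was not tested. In whole tissue, fewer cells of a type and less RNA per cell cannot be told apart. Precision is limited by the number of arrays.

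Of the 10 member probe sets, 6 passed the filter, and these 6 stand for Sema3c, Nrp1, Nrp2 and Plxna2. The single probe sets of Sema3a and Plxnd1, and 1 further probe set each of Nrp2 and Plxna2, lay below it on every array. All 6 tested probe sets were above the filter level on all 21 arrays, the lowest value being 5.28. Levels are compared here within a probe set only, because probe sets differ in how brightly they hybridize.

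Among the ligands, Sema3c was measured by 1 probe set. In impaired rats its log2 level had a lowest value of 5.83, a median of 6.08 and a highest value of 6.95. The unimpaired values were 6.16, 6.78 and 6.92. The young values were 7.56, 8.25 and 8.60. All 13 aged arrays lay below all 8 young arrays, and the lowest young array was 0.61 above the highest aged one. The aged groups overlapped each other, with 4 of 7 impaired arrays below the lowest unimpaired array.

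Group means of Sema3c were 6.29 ± 0.47 in impaired rats, 6.70 ± 0.28 in unimpaired rats and 8.17 ± 0.32 in young rats (SD, n = 7, 6 and 8). The log2 difference was -1.88 ± 0.18 (SE) in impaired minus young, a level 3.69 times lower. It was -1.47 ± 0.19 in unimpaired minus young, a level 2.77 times lower. The 2 differences share the young arrays. For both aged groups, weighted equally, against young rats it was -1.68 ± 0.16, with a 95% interval of -2.00 to -1.35. Counted from the most negative, this ranked 3 among the 15177 differences. Over the whole array, 10 probe sets (0.0659%) had all aged arrays below all young arrays, of which Sema3c was 1. These values chose the gene and are not a test of it.

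**Figure D1:**
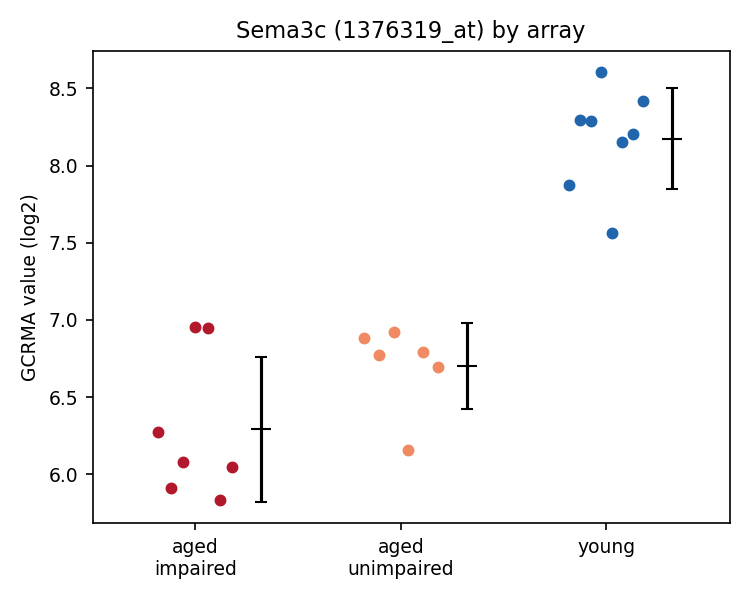
Log2 level of the Sema3c probe set on each array (vertical axis) in impaired, unimpaired and young rats; points are arrays and the bar is the group mean with its SD. The impaired arrays lie between 5.83 and 6.95 and the unimpaired arrays between 6.16 and 6.92, all below the young arrays, which lie between 7.56 and 8.60.

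The comparison between the aged groups played no part in the choice of Sema3c. The log2 difference in impaired minus unimpaired rats was -0.41 ± 0.19, with a 95% interval of -0.81 to -0.01, and 5 of 7 impaired arrays lay below the unimpaired mean. In limma's fit over all probe sets the unadjusted p was 0.0454 and the adjusted p was 0.334, so the difference did not pass. In that comparison 0% of the tested probe sets passed and 14.5% had an unadjusted p under 0.05. A two-sided exact permutation test over the arrays gave a p of 0.0903 (1716 divisions, smallest possible p 0.0005828).

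Some arrays with low Sema3c also had high markers of other cell types. Meningeal fibroblast genes, of which 1 of 9 on the array (Igf2) passed the filter, had a mean log2 level of 4.32 in impaired replicate 2, 4.27 in impaired replicate 3, 3.64 in impaired replicate 7 and 3.61 in young replicate 5. On the other 17 arrays it lay between 3.05 and 3.35. Sema3c on those 4 arrays was 5.91, 6.08, 5.83 and 7.56, so it included the lowest impaired and the lowest young value. Impaired replicate 8 had a Sema3c of 6.05 with a meningeal mean of 3.20. Without the 4 arrays, a choice made after seeing the data, Sema3c differed by -0.15 in impaired minus unimpaired (adjusted p = 0.797) and by -1.63 in aged minus young. None of the 4 is unimpaired, and leaving out impaired arrays with low Sema3c by itself shrinks the difference between the aged groups. Other lists, though not all, were also high on impaired replicate 2. It had the highest endothelial (7.03), pericyte or smooth muscle (5.39), CA1 or CA3 (6.43) and oligodendrocyte precursor (6.65) means of all arrays. The same held for its astrocyte (11.12) and microglia (7.08) means. Impaired replicate 3 was next on the endothelial (6.79) and pericyte or smooth muscle (5.22) means. The part of meningeal tissue or of these other cell types in the Sema3c levels was not tested. The adjusted p in impaired minus unimpaired lay between 0.219 and 0.797 over all alternatives, and the difference reached -0.33 without impaired replicate 7 and -0.52 without impaired replicate 4.

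Some genes of immature neurons were also lower in aged rats. The mean log2 level was taken over all 7 markers, including those below the filter. It was 6.57 in impaired rats (6.48 to 6.63), 6.53 in unimpaired rats (6.46 to 6.58) and 6.79 in young rats (6.70 to 7.02). Aged and young arrays did not overlap, with a highest aged mean of 6.63 and a lowest young mean of 6.70. Over single probe sets, 0.0659% had all aged arrays below all young arrays. No such share was computed for means of lists. Of the 4 markers that passed the filter, 2 (Sox4 and Nrep) were lower in aged rats by limma's test. The same held for 0.705% of all probe sets. Dcx, Sox11 and Igfbpl1 lay below the filter. Neurod1 averaged 8.74 in impaired, 8.59 in unimpaired and 8.75 in young rats, and Tubb3 9.89, 9.81 and 10.0005 in the same order. Within groups the marker mean correlated with Sema3c at an r of 0.32 over 21 arrays. The part of immature neurons in the Sema3c levels was not tested. The granule neuron marker mean was 8.98 ± 0.12 in impaired, 8.92 ± 0.09 in unimpaired and 8.91 ± 0.18 in young rats (SD), and 0 of its genes passed in aged minus young. Its members did not all differ one way: Dsp averaged 8.14, 7.94 and 7.34, Calb1 11.29, 11.20 and 11.41, and C1ql3 12.27, 12.28 and 12.55 in impaired, unimpaired and young rats. Over the 13 marker lists, the r with Sema3c within groups ran from -0.51 for oligodendrocytes to 0.32 for immature neurons. In aged minus young, 1 astrocyte and 1 microglia marker passed as higher and 1 oligodendrocyte marker as lower, and 9 lists had no passing gene.

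Sema3a, whose protein repels axons through neuropilin 1, lay below the filter at a log2 level of 2.62 to 2.69 on all 21 arrays. No difference between groups is given for it.

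No tested receptor probe set had a difference from young rats of the size seen for Sema3c. Sema3c was chosen by its aged and young values and ranked 3 of 15177, so the choice itself sets this contrast. Plxnd1 lay below the filter and was not tested. Of the 5 tested receptor probe sets, 0 passed in limma's fit in any of the 4 comparisons, and 0 had an unadjusted p under 0.05. Of all probe sets, 0.514% passed in impaired minus young, 1.13% in unimpaired minus young, 1.11% in aged minus young and 0% in impaired minus unimpaired. An unadjusted p under 0.05 was found for 12.4%, 17%, 14.6% and 14.5% in the same order. With so few passing over the array, a count of 0 of 5 is near the background and is not a result about the receptors. The lowest end of any tested receptor probe set's 95% interval was -0.46 in impaired minus young. It was -0.38 in both unimpaired minus young and aged minus young. Endothelial markers, whose cells also carry neuropilins and plexin D1, had a mean log2 level of 6.66 ± 0.21 in impaired, 6.42 ± 0.08 in unimpaired and 6.61 ± 0.12 in young rats (SD), and 0 of 8 passed.

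Nrp1, the neuropilin that binds Sema3A, Sema3C and vascular endothelial growth factor, was measured by 2 probe sets. On the brighter, 1373577_at, log2 levels had a lowest value, median and highest value of 9.51, 9.66 and 9.86 in impaired rats, 9.27, 9.69 and 9.78 in unimpaired rats and 9.59, 9.71 and 10.16 in young rats. The groups overlapped over most of their range. In aged minus young rats the difference was -0.12 ± 0.07 (95% interval -0.27 to 0.03, limma adjusted p = 0.461), and 10 of 13 aged arrays lay below the young mean.

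On the other Nrp1 probe set, 1370570_at, the lowest value, median and highest value were 8.54, 8.79 and 9.19 in impaired rats, 8.74, 8.81 and 9.48 in unimpaired rats and 8.62, 9.06 and 9.32 in young rats. The highest of all 21 arrays was thus an unimpaired one, replicate 8, which was below its group's mean on the brighter probe set at 9.58. The aged minus young difference was -0.17 ± 0.10 (95% interval -0.38 to 0.04, limma adjusted p = 0.452), with 11 of 13 aged arrays below the young mean. Both Nrp1 probe sets therefore had small negative differences with intervals that include 0.

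Nrp2, the neuropilin that binds Sema3F and Sema3C, had a lowest value, median and highest value of 9.04, 9.17 and 9.70 in impaired rats, 9.28, 9.34 and 9.55 in unimpaired rats and 8.92, 9.57 and 9.90 in young rats (1382995_at). The lowest of all arrays was a young one, replicate 5. Nrp2 differed in aged minus young rats by -0.18 ± 0.10 (95% interval -0.38 to 0.02, limma adjusted p = 0.390). The largest receptor difference in any comparison with young rats was that of Nrp2 in impaired rats, at -0.23 ± 0.11 (limma adjusted p = 0.411). The second Nrp2 probe set, 1369824_at, lay between 2.20 and 2.25 on all arrays.

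**Figure D2:**
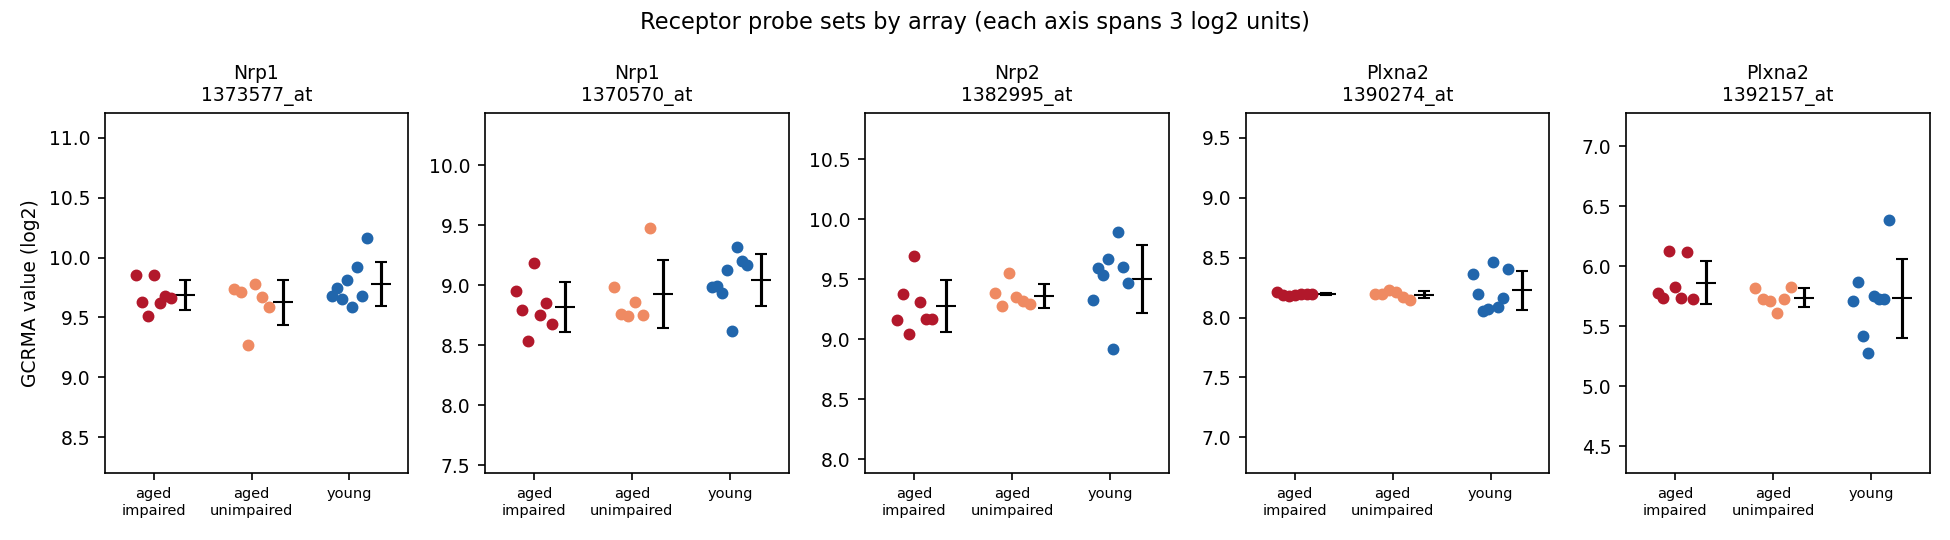
Log2 levels on each array (vertical axis) of the 5 receptor probe sets that passed the filter, in impaired, unimpaired and young rats; points are arrays and bars are group means with SD. The groups overlap in every panel, and the aged arrays of Plxna2 1390274_at lie within 8.14 to 8.23 while the young arrays lie between 8.05 and 8.47.

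Plxna2, a signalling subunit that works with neuropilins and also binds Sema6a directly, was measured by 2 probe sets above the filter. On 1390274_at the lowest value, median and highest value were 8.18, 8.20 and 8.21 in impaired rats, 8.14, 8.19 and 8.23 in unimpaired rats and 8.05, 8.18 and 8.47 in young rats. The aged values lay inside the young range. The impaired SD of 0.0109 was within the range of the member probe sets below the filter (0.0096 to 0.0695). The difference between aged and young rats was -0.03 ± 0.05 (95% interval -0.13 to 0.07, limma adjusted p = 0.800).

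On the dimmer probe set, 1392157_at, the values were 5.73, 5.78 and 6.13 in impaired rats, 5.61, 5.73 and 5.83 in unimpaired rats and 5.28, 5.73 and 6.39 in young rats. The young arrays again spanned the widest range. The aged minus young difference was 0.07 ± 0.10 (95% interval -0.14 to 0.28, limma adjusted p = 0.802). The remaining Plxna2 probe set, 1384355_at, lay between 2.49 and 2.54 on all arrays.

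Plxnd1, the plexin best known from blood vessels and a direct receptor of Sema3E, lay below the filter at 2.17 to 2.36. The highest values, 2.36 and 2.34, were those of impaired replicates 2 and 7, and all other arrays were at or below 2.21. Impaired replicates 2 and 7 were among the 4 arrays with high meningeal markers. The relation was not tested, and no difference between groups is given.

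**Figure D3:**
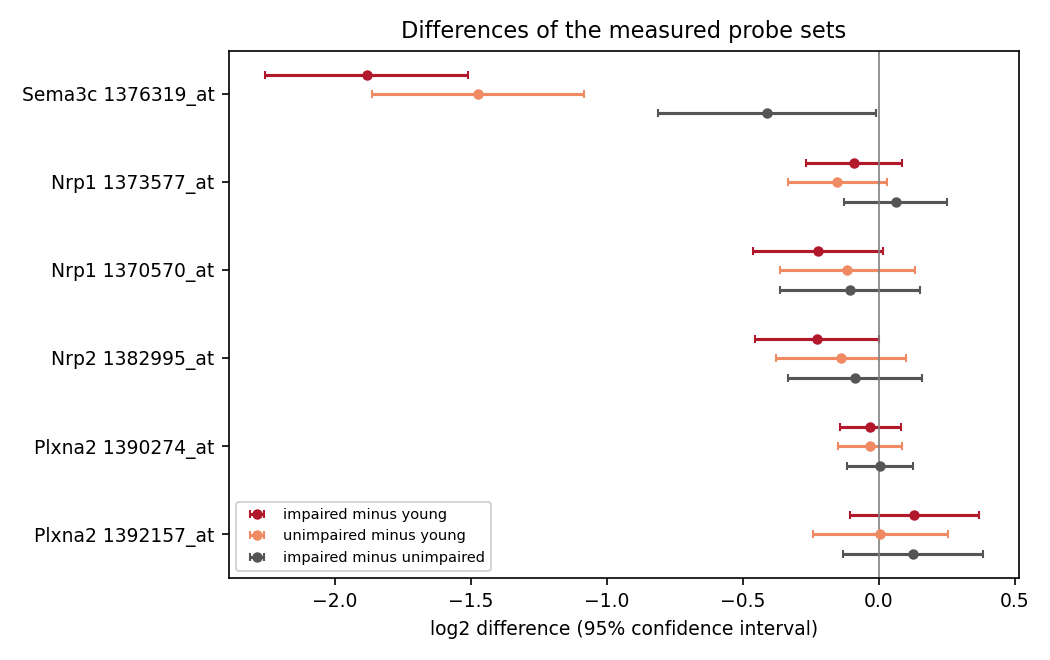
Log2 differences (horizontal axis) with 95% intervals for the 6 tested member probe sets in impaired minus young, unimpaired minus young and impaired minus unimpaired. Sema3c lies at -1.88 and -1.47 in the comparisons with young rats, and every receptor interval in these comparisons ends above -0.47.

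Between impaired and unimpaired rats the receptor differences ranged up to 0.13 in size, and limma's adjusted p lay between 0.655 and 0.985. Nrp1 had opposite signs on its probe sets, at 0.06 on 1373577_at and -0.11 on 1370570_at. Nrp2 differed by -0.09. Plxna2 differed by less than 0.01 on 1390274_at and by 0.13 on 1392157_at.

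Single animals carried some of the spread of several members at once. Young replicate 5 was the lowest young array on Sema3c (7.56), on both Nrp1 probe sets (8.62 and 9.59) and on Nrp2 (8.92), and the highest on Plxna2 1390274_at (8.47). Impaired replicate 4 was the highest impaired array on Sema3c (6.95), on both Nrp1 probe sets (9.19 and 9.86) and on Nrp2 (9.70). After each group's mean was subtracted, Nrp2 correlated with Sema3c at an r of 0.62 and a rho of 0.57 over 21 arrays. Without the 2 arrays farthest from the median, which were young replicate 5 and impaired replicate 4, the r was 0.27. The r for Nrp1 was 0.38 on 1370570_at and 0.20 on 1373577_at, or 0.01 and -0.04 without those 2 arrays. It was -0.34 and -0.12 on the Plxna2 probe sets, or -0.14 and -0.12 without them. These values describe 21 arrays that share a normalization, and no test was made of them.

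Among the other class 3 semaphorins, Sema3e and Sema3g passed the filter and Sema3b, Sema3d and Sema3f did not. Sema3e, the ligand of plexin D1, lay between 7.42 and 8.65 and differed by -0.26 ± 0.13 in aged minus young (limma adjusted p = 0.394). Its r with Sema3c within groups was 0.65, or 0.36 without the same 2 arrays. Sema3g, known from endothelial cells, differed by 0.02 ± 0.19 (limma adjusted p = 0.978). Its highest arrays were impaired replicates 2 and 3, at 7.74 and 7.45, with all others at or below 6.72. Both of these arrays had high meningeal markers. They also had the highest endothelial means, 7.03 and 6.79, with all others at or below 6.74. Their pericyte or smooth muscle means were highest too, 5.39 and 5.22, with all others at or below 4.86. The relation of Sema3g to these lists was not tested.

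The wider semaphorin system and the neighbouring guidance families were described through 10 lists of 119 genes, of which 104 were on the array and 75 had at least 1 of 102 tested probe sets. In aged minus young, 1 probe set was higher (Mical1) and 1 lower (Plxna4), which is 1.96% against 1.11% of all probe sets. The median log2 difference was -0.03 over the lists and -0.01 over all probe sets. In impaired minus young 1 was lower (Plxna4). In unimpaired minus young 0 passed in limma's fit and 22 had an unadjusted p under 0.05, and in impaired minus unimpaired 0 passed and 14 had one. These shares are near the background.

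Plxna4, a class A plexin that pairs with neuropilins, had a lowest value, median and highest value of 8.74, 9.00 and 9.15 in impaired rats, 8.86, 9.12 and 9.33 in unimpaired rats and 9.15, 9.37 and 9.48 in young rats. All 13 aged arrays lay below the young mean, and the unimpaired and young ranges overlapped. The aged minus young difference was -0.30 ± 0.07 (limma adjusted p = 0.029), and the impaired minus young difference was -0.37 ± 0.08 (limma adjusted p = 0.0271). A second Plxna4 probe set differed by -0.09 ± 0.05 in aged minus young (limma adjusted p = 0.400). Plxna4 no longer passed in aged minus young when the 4 arrays above were left out, at a difference of -0.33 (adjusted p = 0.0599), or when young replicate 6, 7 or 9 was (0.0646 to 0.0719). It also did not pass there with no filter on low values (0.0642) or with the replicate number as a block (0.0769). The impaired minus young call was lost without those 4 arrays at a difference of -0.43 (adjusted p = 0.0923). It was also lost without impaired replicate 3 or young replicate 6, 7 or 9 (0.0596 to 0.0608), and with no filter on low values (0.0723). Over all alternatives run, Plxna4 differed by -0.33 to -0.27 in aged minus young and by -0.43 to -0.33 in impaired minus young.

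Mical1, an enzyme that oxidizes actin and acts downstream of plexins, had values of 4.93, 5.52 and 5.58 in impaired rats, 5.10, 5.31 and 5.48 in unimpaired rats and 4.68, 4.96 and 5.05 in young rats. All 13 aged arrays lay above the young mean, and 3 of 7 impaired arrays (replicates 3, 6 and 8) lay within the young range. Mical1 was higher in aged rats by 0.39 ± 0.09 (limma adjusted p = 0.033). It no longer passed with no filter on low values (limma adjusted p = 0.0763) or with the replicate number as a block (0.125). It also did not pass without the 4 arrays with high meningeal markers, at a difference of 0.38 (adjusted p = 0.0599). Nor did it pass in 7 of 21 fits that left out 1 array (0.0502 to 0.0752). Those arrays were impaired replicate 1, unimpaired replicates 3 and 8 and young replicates 2, 3, 6 and 9. With 1 array left out the difference was 0.35 to 0.42.

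**Figure D4:**
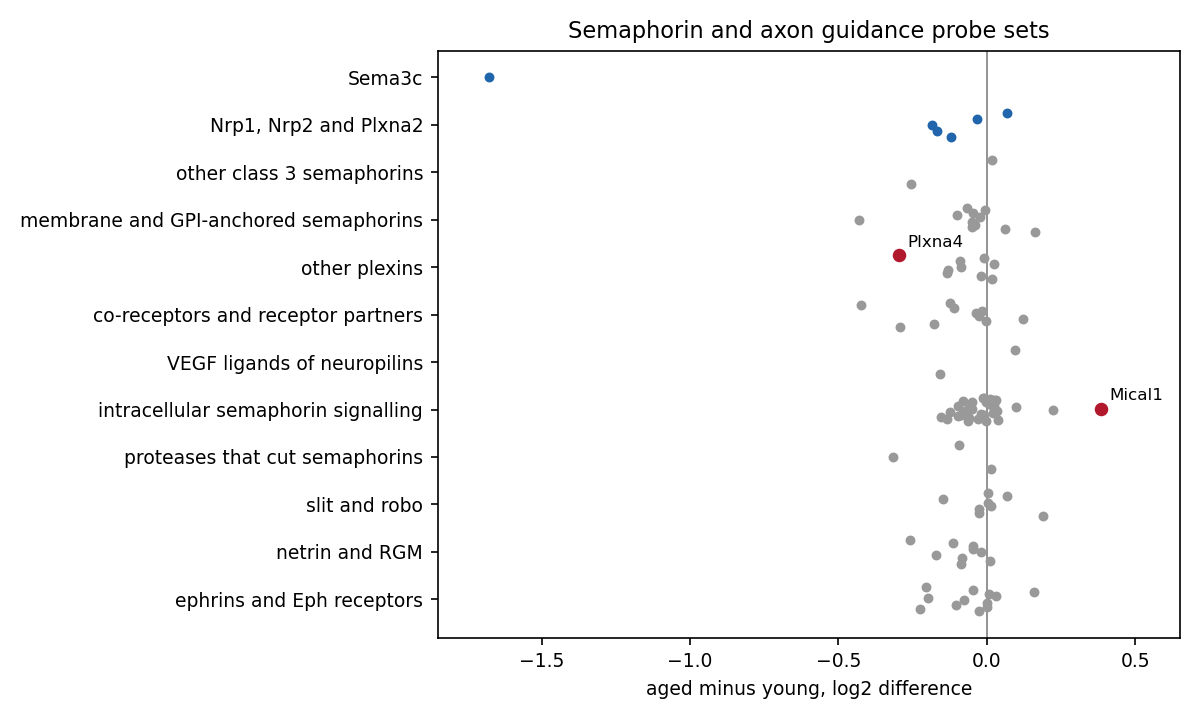
Aged minus young log2 difference (horizontal axis) of each tested probe set of the 10 guidance lists and of the members, by list; each point is a probe set, and the named points passed the test. Sema3c lies at -1.68, Plxna4 at -0.30 and Mical1 at 0.39, and most other points lie near 0.

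Plxna4 and Mical1 were the only probe sets of the 10 lists that passed in aged minus young by limma's test. The share of all probe sets with a negative difference was not computed, so the sign counts by list have no background. The median over all probe sets was -0.01. Of 11 probe sets of 9 membrane-bound and GPI-anchored semaphorins, 9 had a negative difference and the median was -0.05. Sema6a, the direct ligand of plexin A2, had -0.43 ± 0.24 (adjusted p = 0.437) on 1 probe set and -0.05 ± 0.03 (adjusted p = 0.541) on the other. Sema4a had -0.10 ± 0.05 (adjusted p = 0.402) and Sema4f had 0.16 ± 0.07 (adjusted p = 0.291). Of 9 probe sets of 6 other plexins, 7 were negative with a median of -0.09. Plxna1 had -0.13 ± 0.07 (adjusted p = 0.384), and the 2 Plxna3 probe sets had -0.13 ± 0.08 and 0.02 ± 0.03. Of 10 probe sets of 7 receptor partners, 9 were negative with a median of -0.07. The integrin subunit Itgb1 had -0.43 ± 0.13 (adjusted p = 0.116) on 1 probe set and -0.18 ± 0.08 (adjusted p = 0.287) on the other, and the VEGF receptor Kdr had -0.29 ± 0.15 (adjusted p = 0.401).

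The growth factors that share neuropilins had differences of opposite sign. Vegfa had -0.16 (adjusted p = 0.481) and Vegfb 0.10 (adjusted p = 0.443) in limma's aged minus young comparison. Intracellular signalling genes, the largest list, had 36 probe sets of 25 genes, of which 14 were positive and 22 negative, with a median of -0.01. The kinase Fyn had -0.14 ± 0.05 and -0.12 ± 0.05 on its 2 probe sets (adjusted p = 0.208 and 0.222). The actin oxidase Mical3 had opposite signs on its 2 probe sets, 0.22 ± 0.08 (adjusted p = 0.208) and -0.08 ± 0.07 (adjusted p = 0.617). Among the proteases that cut semaphorins, Mmp14 had -0.32 ± 0.09 (adjusted p = 0.107) and Furin, which processes class 3 semaphorins, had 0.01.

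Of the neighbouring guidance families, the slit and robo list had 5 positive and 3 negative probe sets, with a median of 0.00 and Slit1 at 0.19 (adjusted p = 0.355). In the netrin and RGM list 8 of 9 were negative with a median of -0.08. The neogenin ligand Rgma had -0.17 (adjusted p = 0.172), and the netrin receptor Unc5b had -0.26 (adjusted p = 0.247). In the ephrin and Eph receptor list 5 were positive and 7 negative, with a median of -0.04. The receptor Epha4 had 4 probe sets at -0.20, -0.10, -0.08 and -0.05 (adjusted p of 0.128 to 0.776), and Epha5 and Ephb1 had -0.22 and -0.21 by the same test.

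Genes whose levels most resembled Sema3c were ranked by Pearson's r over the 21 arrays, among 8736 genes. The arrays fall into aged and young sets for Sema3c, so this r mostly ranks genes by how they differ with age. The highest values were those of D430041D05Rikl (0.87), the tubulin gene Tubb2b (0.86), the thyroid hormone transporter Slco1c1 (0.84), the axon initial segment adhesion gene Nfasc (0.83) and Tp53inp2 (0.82). The lowest were those of the glutathione transferase Gstp1 (-0.96), the protocadherin Pcdhb17 (-0.92), the bone morphogenetic protein Bmp6 (-0.91), Ptpdc1 (-0.84) and the cadherin Cdh13 (-0.83). For comparison, 5% of genes had an r under -0.51 and 5% had one over 0.47.

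With each group's mean subtracted, the highest values were those of the kinesin gene Kif3b (0.73), Eepd1 (0.73), the sodium-calcium exchanger Slc8a1 (0.72), Slc35f6 (0.68) and Fbxl6 (0.67). None of these genes was among the 5 highest over all arrays. Over all genes, 5% had a within-group r over 0.37 and 5% had one under -0.45.

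Gstp1 followed Sema3c inversely within groups as well as between them. Its log2 level had a lowest value, median and highest value of 10.32, 10.54 and 10.62 in impaired rats, 10.29, 10.36 and 10.49 in unimpaired rats and 9.995, 10.11 and 10.27 in young rats. All aged arrays lay above all young arrays. Gstp1 was picked by its r with Sema3c, whose aged and young arrays also do not overlap, so this is no separate result. With group means subtracted the r with Sema3c was -0.78 and the rho -0.75, and the r was -0.63 without the 2 arrays farthest from the median. By group the r was -0.92 over 7 impaired, -0.68 over 6 unimpaired and -0.65 over 8 young arrays. The rho was -0.86, -0.54 and -0.45 in the same order. Unimpaired replicate 6 and young replicate 5 each had their group's highest Gstp1 (10.49 and 10.27) and lowest Sema3c (6.16 and 7.56). By the r over all arrays this pair was the most extreme of 8736, and no test was made of it. The lowest within-group r values were not ranked.

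**Figure D5:**
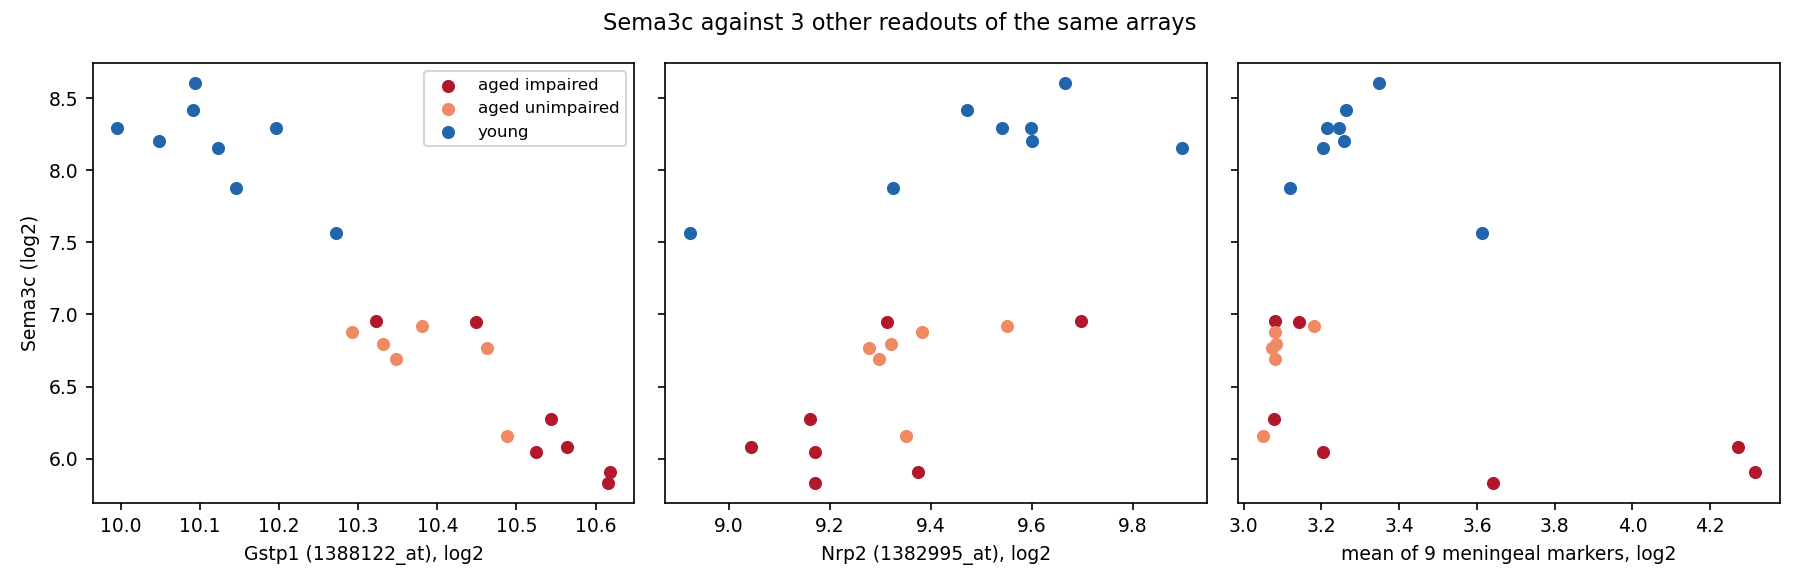
Log2 level of Sema3c (vertical axis) against those of Gstp1, Nrp2 and the mean of 9 meningeal markers (horizontal axes, log2); each point is an array of the impaired, unimpaired or young group. Arrays with more Gstp1 tend to have less Sema3c (r within groups -0.78). The rho was -0.86 in impaired, -0.54 in unimpaired and -0.45 in young rats. The relation with Nrp2 is looser (r within groups 0.62), and 4 arrays with meningeal means of 3.61 to 4.32 stand to the right.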

How the data were processed

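The authors deposited 1 log2 value per probe set and array, summarised by GCRMA, with no version in the submitters' processing notes. Of 24 labelled arrays, 3 (1 per group) have empty columns, so 21 were used, and 0 columns belonged to other samples. Groups follow the labels. Young replicate 9 stands among the unimpaired arrays in the listing, but its title, source and age say young, which was followed. The labels give no batch. Gene symbols came from the platform annotation, and no coordinates were used. Of the 31042 probe sets other than controls, 20826 have 1 symbol, 436 several and 9780 none.

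A single linear model of the 3 groups was computed from these values with limma 3.58.1 (R 4.3.3, moderated by eBayes), leaving 18 residual degrees of freedom. Tested probe sets had a log2 level above 4 on at least 6 arrays. The Benjamini-Hochberg adjustment ran over all 15177, with a threshold of 0.05. Aged minus young weights both aged groups equally. The fit was tested on simulated data. The members, the 10 guidance lists and the 13 lists of cell type markers were chosen with earlier results of these data known. Named were all member probe sets, from each guidance list up to 3 genes with the smallest p in aged minus young and any that passed, and the 5 genes most like or unlike Sema3c, with 1 probe set a gene (that of highest mean). Alternatives were no filter, a floor of 6, median centring, quantile normalization, array weights, a trended robust prior, the compared groups alone, the replicate number as a block and each array left out. Leaving out the 4 arrays with high meningeal markers was chosen after seeing the data.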

Additional observations from a re-analysis of the deposited data

Results flagged for a closer look

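In 2 of 36 groups of values checked, 1 array stood apart from the others of its group by Dixon's 95% criterion, which chance meets in about 1 of 20 groups. For Nrp1 (1370570_at), unimpaired replicate 8 had a log2 level of 9.48, while the other unimpaired arrays lay between 8.74 and 8.99. On the other Nrp1 probe set the same array had 9.58. For Sema3c, unimpaired replicate 6 had 6.16, while the other unimpaired arrays lay between 6.69 and 6.92.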

How the results depend on the processing

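Sema3c kept its negative difference under every alternative run, between -1.76 and -1.62 in aged minus young when 1 array was left out. Its aged and young values chose the gene, so the steadiness of that difference is a description and not support for it. In impaired minus unimpaired Sema3c did not pass under any alternative run. Across the fits that left out 1 array it lay between -0.52 and -0.33. The 5 receptor probe sets gave 0 calls in all of the alternatives run. Signs of differences near 0 changed. Plxna2 1390274_at had -0.0124 in impaired minus unimpaired with median centring, and with quantile normalization -0.0590 there and 0.0194 for unimpaired minus young. With impaired replicates 2, 3 and 7 and young replicate 5 left out, its impaired, unimpaired and aged differences from young were 0.0077, 0.0001 and 0.0039. Nrp1 1373577_at had -0.0118 in impaired minus unimpaired with quantile normalization, and -0.0094 to 0.0925 with 1 array left out. With 1 array left out, Nrp1 1370570_at lay between -0.17 and 0.0023 in impaired minus unimpaired. Plxna2 1390274_at lay between -0.0571 and 0.0017 for aged, -0.0554 and 0.0034 for impaired and -0.0587 and 1e-04 for unimpaired rats, each minus young, and -0.0062 and 0.0116 in impaired minus unimpaired. Plxna2 1392157_at lay between -0.0595 and 0.0989 in unimpaired minus young. A floor of 6 gave no value for Plxna2 1392157_at. The count of guidance probe sets that passed in aged minus young, 2, was 0 with no filter, 1 with a floor of 6, 0 without the same 4 arrays, and 0 to 3 with 1 array left out (0 without young replicate 6 or 9, 3 without young replicate 1).

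Replicate numbers were not taken to pair the arrays, because the labels do not say that they do. Of same-numbered pairs across groups, 4 of 17 had an r above 0.1 (mean 0.02, -0.12 to 0.20). Of pairs of different number, 12 of 129 did (mean -0.003), and 7 of 19 arrays correlated best with their own number. Whether the numbers mark a shared batch was not tested. With the number as a block, Sema3c had -1.73 in aged minus young and -0.39 in impaired minus unimpaired (adjusted p = 0.337), the count of guidance probe sets was 0 (Plxna4 adjusted p = 0.0769, Mical1 adjusted p = 0.125), and Plxna2 1390274_at had 0.0428 in each comparison with young rats. Nrp2 had -0.31 in impaired minus young (adjusted p = 0.0764).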

Other observations

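The measured level of Plxna2 1390274_at varied less among aged than among young rats. Its SD was 0.02 within the aged groups and 0.16 in young rats, a ratio of young over aged of 7.30. Of the 15177 tested probe sets, 21 (0.138%) had a higher ratio. The other Plxna2 probe set had a ratio of 2.28 and Nrp2 of 1.66, and Sema3c had 0.82. In impaired rats the SD of Plxna2 1390274_at was 0.0109. In the same rats it was 0.0096 to 0.0695 on member probe sets below the filter and 0.13 to 0.47 on the other tested ones. Plxna2 1390274_at was singled out after its values were seen. Neither the difference in spread nor whether the probe set follows transcript level was tested. Young replicate 5, which had high meningeal markers, was the highest of the young arrays on it.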
